A study of Mus musculus with 13 samples.

Results

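A set of 9 genes of the complement system were followed through droplet-based single-cell RNA libraries of mouse colon tumors and adjacent mucosa. They were found by gene symbol, which matched 9 of the 32285 genes counted, 1 entry for each. C1qa, C1qb and C1qc encode the chains of C1q, the recognition molecule of the classical pathway. C2 and C4b encode parts of the classical and lectin convertase, C3 the central component, Cfb (complement factor B) the protease of the alternative convertase, and C3ar1 and C5ar1 the receptors of the anaphylatoxins C3a and C5a. The members were named for their place in the pathway and not for their values, although earlier results of these libraries were known when they were chosen.

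The series held 13 libraries from 3 mice, 10 from colon tumors and 3 from adjacent mucosa. Mouse A, aged 24 weeks, gave tumors 5 to 8 and mucosa 2, mouse B, aged 23 weeks, gave tumors 9 and 10 and mucosa 3, and mouse C, aged 20 weeks, gave tumors 1 to 4 and mucosa 1. All were C57BL/6J mice of the genotype ApcMin/+; p16cis/cis, which joins a truncating Apc allele, a germline cause of intestinal tumors, to an engineered allele that promotes methylation of the p16 promoter. All had received the diet supplemented with choline, betaine, folic acid and vitamin B12, so the diet and both alleles were shared by tumor and mucosa and no library on the control diet was used here. Mucosa was dissociated with EDTA and TrypLE and tumors with a tumor dissociation kit, so that tissue and dissociation cannot be told apart.

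Complement is a cascade of plasma and tissue proteins. C1q bound to immune complexes or to dying cells leads to cleavage of C4 and C2, the alternative pathway amplifies through factor B, and both lead to cleavage of C3, whose fragments coat targets and, with C5a, recruit myeloid cells through their receptors. Most plasma complement is made in the liver, but C1q is made chiefly by tissue macrophages and dendritic cells, and epithelial cells of the gut are known to transcribe C3 and factor B.

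Tumor libraries held 57221300 to 93157039 unique molecular identifiers (UMIs, each standing for 1 captured RNA molecule) and mucosa libraries 84883382 to 116133079. Of 137591 barcodes, 108495 cells were retained, 85953 from tumors and 22542 from mucosa, and any pair of libraries shared at most 61 barcodes. Cells were clustered without the 9 members and 42 other complement genes, so member levels did not shape the clusters. Clusters were named from marker genes, and "X-like" below means that the cluster carried the markers of X. Monocyte- and macrophage-like cells, called mononuclear phagocyte-like below (dendritic-like cells not included), numbered 8474 Ly6c+ monocyte-like, 7217 inflammatory macrophage-like and 6035 mature macrophage-like cells in tumors, but only 14, 5 and 65 cells in all in mucosa 1, 2 and 3. All 13 libraries carried Y-linked transcripts, although 7 were labelled female, and libraries of mouse A, like those of mouse C, carried both sex labels. The sex label was therefore not used, and the mouse of each library rests on the animal code of the labels.

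The C1q genes lie side by side on the minus strand of chromosome 4 (GRCm38), C1qb at chr4:136880129-136886187, C1qc at chr4:136889804-136893065 and C1qa at chr4:136895917-136898803, with 3616 and 2851 bases between neighbours. C4b, Cfb, C2 and C3 lie on chromosome 17, where C2 ends 85 bases before the start of Cfb on the same strand. C3ar1 lies at chr6:122847138-122856161 and C5ar1 at chr7:16246743-16259540. C4b has a near-identical copy, C4a, to which its reads may have been split, so that C4b values are uncertain. The RefSeq promoter table (250 bases before to 50 after a gene's start, GRCm38.p6) held 5 of the 9 members. The promoters of C1qb and C1qc are shown because both genes followed each other across libraries and cell classes, and both are written 5′ to 3′ on the minus strand. Capitals mark matches to the motifs searched on both strands, which were an IRF core (AANNGAAA), a STAT site (TTCNNNGAA), a kappa B site (GGGANTTCC) and a PU.1 site (GAGGAAGT).
C1qb, chr4:136886151-136886450: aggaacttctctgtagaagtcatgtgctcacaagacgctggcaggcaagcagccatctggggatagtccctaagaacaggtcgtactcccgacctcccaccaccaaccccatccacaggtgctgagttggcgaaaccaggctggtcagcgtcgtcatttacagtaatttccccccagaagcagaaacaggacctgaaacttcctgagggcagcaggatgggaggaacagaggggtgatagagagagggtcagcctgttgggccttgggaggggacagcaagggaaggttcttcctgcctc
C1qc, chr4:136892865-136893164: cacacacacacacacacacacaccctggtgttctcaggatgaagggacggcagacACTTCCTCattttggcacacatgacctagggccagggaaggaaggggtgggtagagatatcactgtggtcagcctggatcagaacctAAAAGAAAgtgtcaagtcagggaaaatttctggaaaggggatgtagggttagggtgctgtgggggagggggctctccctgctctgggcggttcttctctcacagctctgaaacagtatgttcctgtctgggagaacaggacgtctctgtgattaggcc
The C1qc promoter held an IRF core match, AAAAGAAA, at -108 and a PU.1 match, printed as ACTTCCTC since it lay on the opposite strand, at -195 from the start site, and none of the 4 motifs occurred in the C1qb window. An IRF core match occurred in 23.9% of the 32851 promoters of the same length and a PU.1 match in 3.20%. Single IRF core matches stood at -209 in the C3ar1 promoter and at -119 in that of C3, and the C5ar1 window held none of the 4.

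When all retained cells of a library were summed, 7 of the 9 complement genes were higher in tumors, none was lower, and C2 and Cfb did not pass the test. Values are UMIs of a gene per 1000000 UMIs of the cells summed (CPM), compared by the quasi-likelihood method of edgeR, with p-values adjusted after Benjamini and Hochberg over 17288 genes and called at 0.05. The tissues differed widely, with 36.3% of all genes tested called higher and 35% called lower. In 26.8% of genes every tumor stood above every mucosa, as it did for the 7 members called. The median log2 difference over the members was 6.23, against 0.01 over all genes tested, and C3ar1 and C5ar1 passed the count filter through the tumors. The count and the median are therefore not read as a result about the members. In such sums, more cells of a type and more RNA per cell cannot be told apart, and the sum of 10 mature macrophage markers moved the same way, from 61.4 to 108.4 CPM in mucosa to 2997 to 7163 in tumors.

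**Figure D1:**
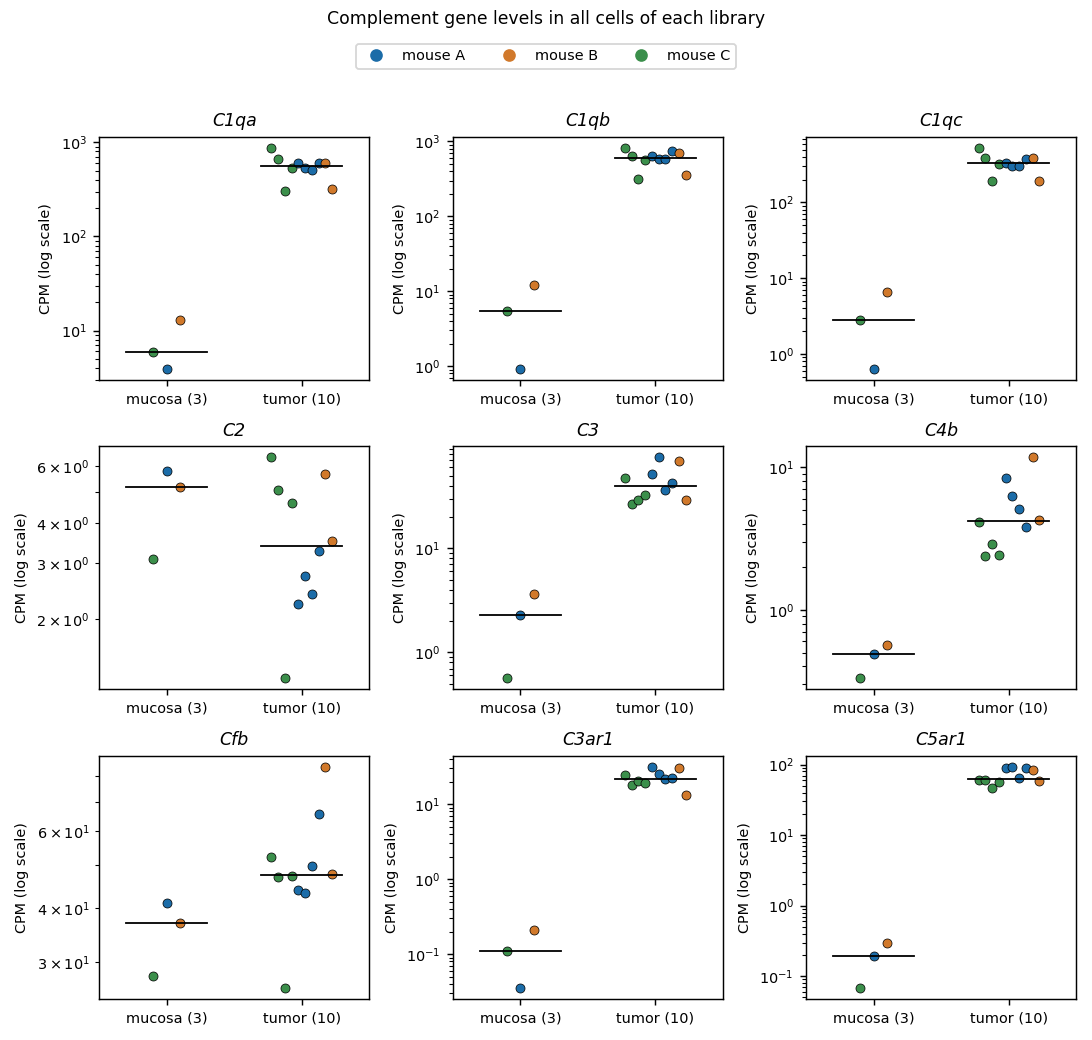
Level of each complement gene in every library (log axis, CPM of all retained cells), with 1 point per library coloured by mouse, bars at the median and log axes that differ between panels. C1qb runs from 318 to 817 CPM in the 10 tumors and from 0.917 to 12.2 in the 3 mucosa, whereas C2 runs from 1.31 to 6.41 in tumors and from 3.09 to 5.81 in mucosa.

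The C1q chains had the highest levels of the 9 members in tumors, in CPM of all cells. C1qa, which encodes the A chain, stood at 5.87, 3.92 and 12.9 CPM in mucosa 1, 2 and 3, and in tumors at 306 in the lowest, 566 at the median and 870 in the highest. C1qb, the B chain, gave 5.48, 0.917 and 12.2 CPM in mucosa against 318, 608 and 817 in tumors. C1qc, the C chain, gave 2.79, 0.631 and 6.46 CPM against 190.4, 328 and 525. For each chain the lowest tumor was tumor 3 and the highest tumor 1, both from mouse C, and no tumor overlapped with mucosa. The log2 differences were 6.23 ± 0.52 (SE; adjusted p = 2.9e-07) for C1qa, 6.62 ± 0.74 (adjusted p = 3.3e-06) for C1qb and 6.69 ± 0.71 (adjusted p = 2.0e-06) for C1qc. Without mucosa 3, which had the highest mucosa level of each chain, they were 6.88, 7.62 and 7.68, a move of over 1.5 times in fold. The spread between tumors of 1 mouse was wider than that between mice, whose mean C1qb levels were 634, 533 and 587 CPM (mice A, B and C).

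Almost all C1q transcripts in tumors were in mononuclear phagocyte-like cells, which held 98.9% ± 0.2 of C1qa, 98.6% ± 0.2 of C1qb and 98.9% ± 0.3 of C1qc UMIs (SD, n = 3 mice). Mature macrophage-like cells alone held 87.1% ± 3.8, 79.6% ± 5.3 and 86.2% ± 4.5. In those cells C1qb reached 5432 ± 248 CPM, against 855 ± 105 in Ly6c+ monocyte-like, 534 ± 40 in inflammatory macrophage-like and 35.5 ± 9.8 in dendritic-like cells. The 3 levels did not overlap between tumors for mature macrophage-like against the other phagocyte classes, since the lowest tumor gave 4599 CPM and the highest Ly6c+ monocyte-like value was 1260. The gap between Ly6c+ monocyte-like and inflammatory macrophage-like cells was smaller, and their tumors overlapped (458 to 1260 against 244 to 742 CPM). C1qa ran in the same order of classes, at 5451 ± 145, 518 ± 103 and 275 ± 15 CPM, as did C1qc, at 3264 ± 156, 322 ± 78 and 191 ± 18.

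**Figure D2:**
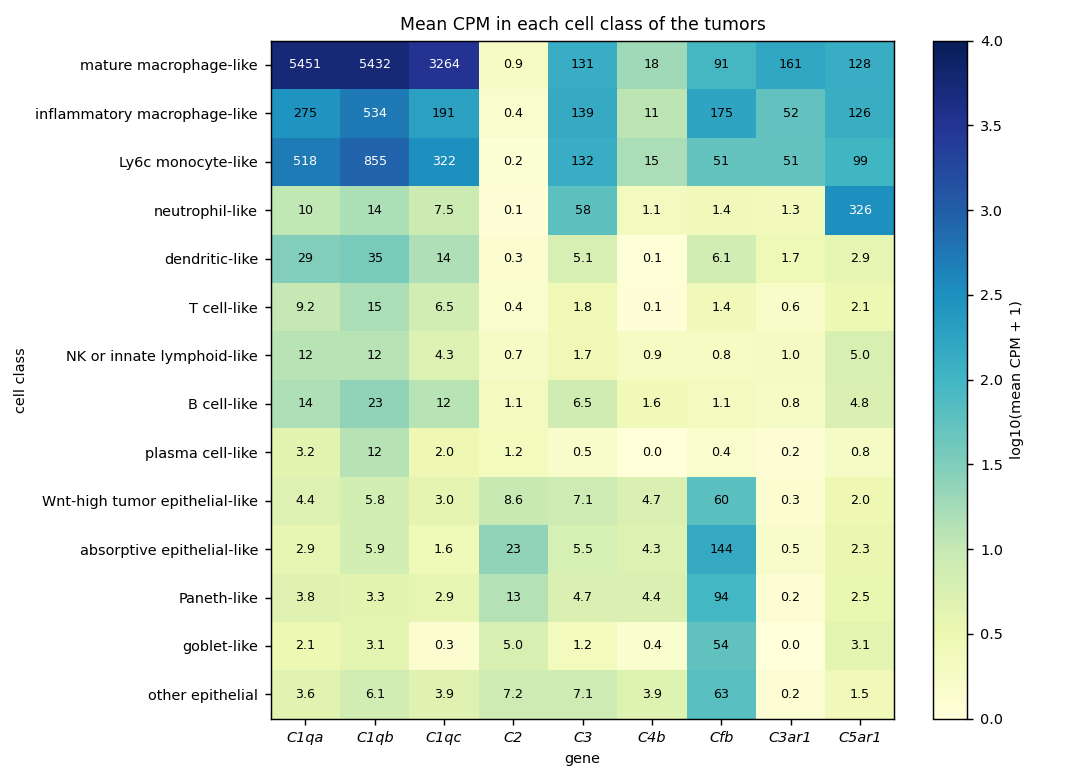
Mean level of each complement gene (number in each cell, in CPM; colour, log10 of CPM + 1, darker for higher) by cell class in tumors, as the mean over 3 mice. The C1q chains are darkest in mature macrophage-like cells (C1qb 5432 CPM), C2 in absorptive epithelial-like cells (23.0 CPM) and C5ar1 in neutrophil-like cells (326 CPM).

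At a finer clustering (55 clusters rather than 38), C1qb was graded among the phagocytes. A Vcan-led monocyte-like cluster gave 42.3 to 148 CPM over the 10 tumors with a median of 55.2, a Cxcl10-led cluster 148 to 642 with a median of 334, and a Ccl24-led cluster 304 to 853 with a median of 694. A Ccr2-led cluster stood higher, at 528 to 1695 with a median of 1344, and a Pf4-led macrophage-like cluster at 4835 to 6218 with a median of 5669. The Pf4-led cluster did not overlap with any of these 4 in any tumor, whereas the Cxcl10-, Ccl24- and Ccr2-led ranges overlapped with each other. The mature macrophage-like class also held a shallow cluster led by the stress gene Hspa1a and by Zeb2, with a median of 1017 UMIs per cell against 10994 in the cluster led by Pf4 and Apoe, and its C1qb level at the finer clustering was 1919 CPM against 5644.

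**Figure D3:**
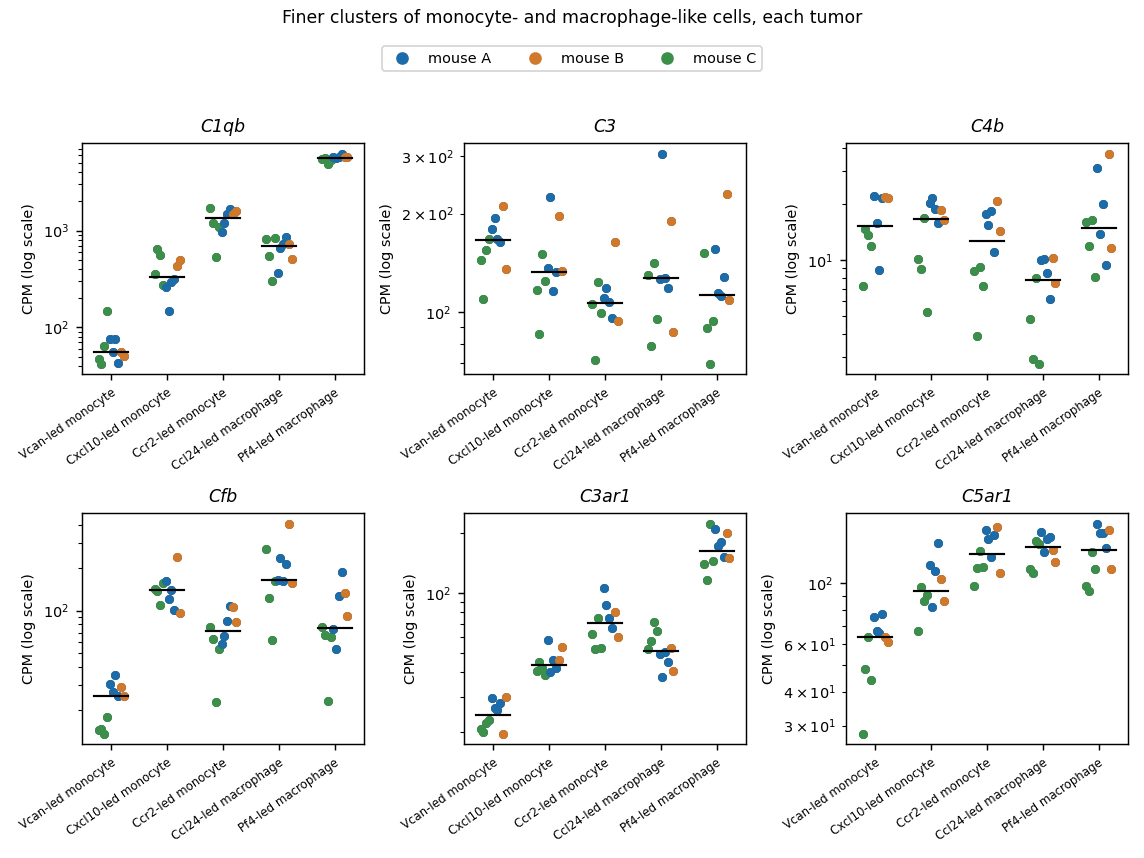
Levels of C1qb, C3, C4b, Cfb, C3ar1 and C5ar1 (CPM, log axes that differ between panels) in finer clusters of phagocyte-like cells, 1 point for each tumor coloured by mouse, with bars at the median. Median C1qb is 55.2 CPM in the Vcan-led and 5669 in the Pf4-led cluster, whereas median C3 is 166 and 113 CPM in the same clusters.

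Among tumors, the ratio of C1qc to C1qb separated by animal. In the Pf4- and Apoe-led macrophage-like cluster, the ratio of C1qc to C1qb UMIs was 0.693, 0.666, 0.643 and 0.618 in tumors 1 to 4 of mouse C, 0.604 and 0.588 in tumors 9 and 10 of mouse B, and 0.556, 0.566, 0.575 and 0.540 in tumors 5 to 8 of mouse A. The tumors of the 3 mice did not overlap in this ratio. How often ratios of other genes separate by mouse in this cluster was not examined, so whether this is unusual is not known. The ratio of C1qa to C1qb spanned 1.03 to 1.16, 0.953 to 1.00 and 0.851 to 1.03 in mice C, B and A, which overlapped. In mucosa 3, from mouse B, 23 cells of this cluster gave 1.00 for C1qa and 0.573 for C1qc. The C1qc value lay below both tumors of mouse B and within the range of mouse A, so the separation did not extend to mucosa. Mouse, age and handling cannot be told apart here, so the ratios are a description.

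**Figure D4:**
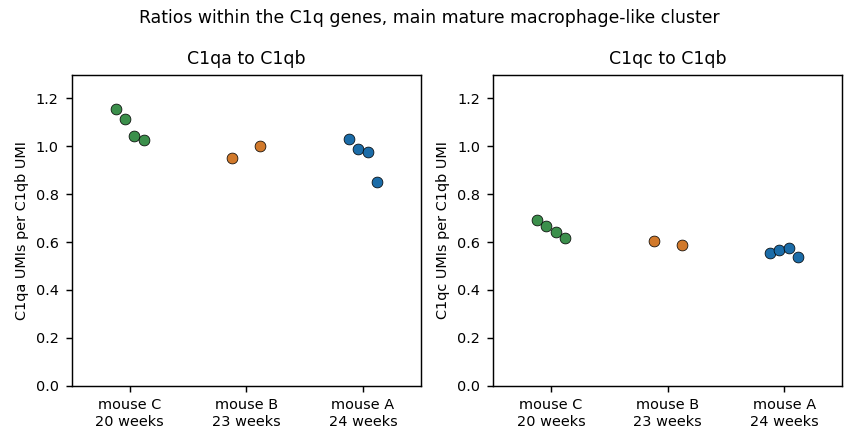
UMIs of C1qa and of C1qc per UMI of C1qb in the Pf4- and Apoe-led macrophage-like cluster (linear axis, no unit), 1 point for each tumor, by mouse. The C1qc ratio runs from 0.618 to 0.693 in mouse C and from 0.540 to 0.575 in mouse A, with mouse B between them at 0.588 and 0.604.

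Within phagocyte-like cells themselves, tumor and mucosa could be compared only against mucosa 3, the single mucosa library with at least 20 such cells (65 cells, 275366 UMIs). The mix of phagocyte classes was not the same in both tissues, since 25 of these 65 cells were mature macrophage-like, 34 Ly6c+ monocyte-like and the remainder inflammatory macrophage-like, against 6035, 8474 and 7217 in tumors, and the part of this mix in the values below was not tested. C1qa stood at 3889 CPM there against 1571 to 3195 in tumors, C1qb at 3947 against 1654 to 3225, and C1qc at 2106 against 951 to 1929. Every tumor lay below this 1 mucosa, as in 34.6% of genes tested there, and none of the 3 passed the test, with log2 differences of -0.49 ± 0.34 (adjusted p = 0.65), -0.41 ± 0.32 (adjusted p = 0.69) and -0.33 ± 0.35 (adjusted p = 0.77) in edgeR. None of the 9 members was called in these sums, where 1.09% of 13088 genes were called higher and 0.267% lower. DESeq2 called none either. The median log2 difference was 0.55 over the 9 members, one of them C2 with 0 UMIs in the mucosa, and 0.11 over the 8 with a mucosa UMI, against 0.42 over all genes tested. Keeping doublets also brought mucosa 1 and 2 over the minimum of 20 cells (44, 41 and 74 cells in mucosa 1, 2 and 3, against 14, 5 and 65 without doublets). Most of these cells in mucosa 1 and 2 were thus barcodes flagged as likely doublets. The differences of C1qb and C1qc were then 0.07 and 0.10, and C3, C3ar1 and C5ar1 were called higher. In that fit 943 of 12431 genes were called, 737 of them higher. With a minimum of 5 phagocytes, which brings in all 3 mucosa libraries, C5ar1 was called, where 555 of 12020 genes were, 473 of them higher. With 1 mucosa library, as here, the fit takes that library to vary as the tumors do.

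In epithelial-like sums, 5 of the 8 complement genes tested were higher in tumors and none was lower, where 34.2% of 15409 genes were called higher and 30.6% lower. The median log2 difference was 2.23 over the members and 0.04 over all genes. C1qb, C1qc, C4b and C5ar1, 4 of the 5 called, passed the count filter through the tumors and not in all mucosa libraries, so that the count and the median are not read as a result about the members. C1qb stood at 0, 0.0878 and 0.120 CPM in mucosa 1, 2 and 3 against 3.19 to 8.88 in tumors, and C1qc at 0.0318, 0.0376 and 0.0359 against 1.15 to 4.98. The mucosa values rest on 17 UMIs of C1qb and 8 of C1qc. Ratios of the pooled counts were 70.95 for C1qb (95% counting interval 44.2 to 122.1) and 72.7 for C1qc (36.7 to 169). In tumors C1qb stood at 5.76 ± 1.08 CPM in Wnt-high tumor epithelial-like cells, beside 14.6 ± 4.4 in T cell-like, 12.2 ± 4.2 in plasma cell-like, 14.3 ± 4.9 in neutrophil-like and 4.84 in erythroid-like cells (the last from 3 tumors of 1 mouse). Some marker sums of other cells moved with them, from 11.5 to 16.0 CPM in mucosa to 94.9 to 216 in tumors for 8 pan-immune genes, 6 of which were above mucosa in every tumor, and from 27.1 to 47.3 to between 73.9 and 137.5 for 10 mature macrophage genes, 6 likewise. For 8 neutrophil genes the sums were 6.11 to 17.6 CPM against 320 to 1451, all 8 above mucosa in every tumor. The sum of 7 Ly6c+ monocyte genes did not rise, at 834 to 1949 CPM in mucosa against 398 to 1630 in tumors. Of these genes, 5 were above mucosa in every tumor. None of the genes of these lists was at 0 in mucosa, and their part in the C1q difference was not tested.

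C1qa was the exception among the chains in epithelial-like cells. It stood at 0.589, 2.65 and 1.14 CPM in mucosa and at 2.45 to 6.14 in tumors, overlapping at mucosa 2, and was higher in tumors by 1.29 ± 0.41 (adjusted p = 0.013). Without mucosa 2 the difference was 2.04 (adjusted p = 0.0014). The call was lost without mucosa 1 (0.91, adjusted p = 0.064), without mucosa 3 (1.12, adjusted p = 0.067) and with the tumors of each mouse summed (1.32, adjusted p = 0.055). In mucosa, goblet-like cells held 35 of 427 C1qa UMIs in mucosa 1, 199 of 329 in mucosa 2 and 78 of 1183 in mucosa 3, but only 2 UMIs of C1qb and 3 of C1qc in all. Their share of C1qa was 16.1% over the 3 libraries and 7.02% without mucosa 2.

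**Figure D5:**
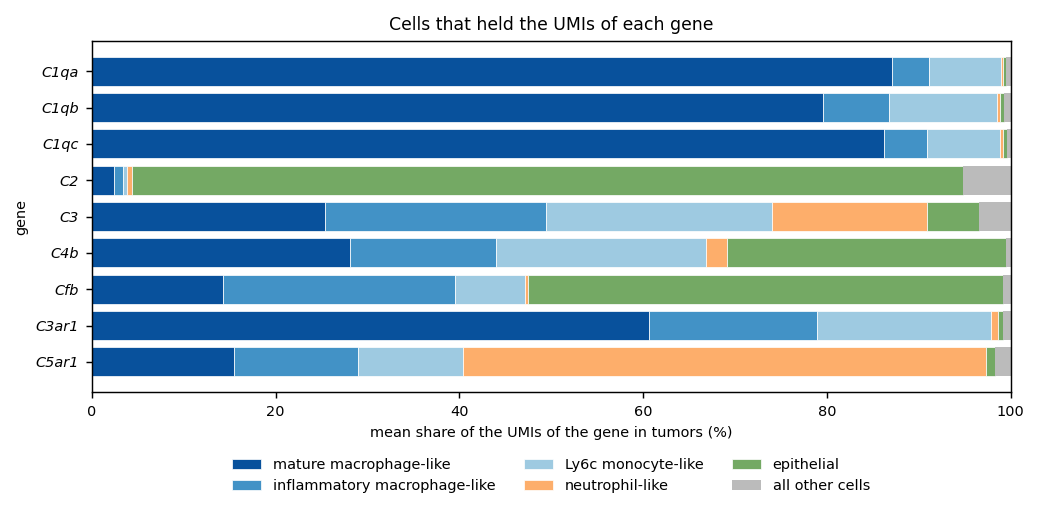
Share of each complement gene's tumor UMIs (percent, linear axis) that lay in each cell class, as the mean over 3 mice. Phagocyte-like classes hold 98.6% of C1qb and 74.1% of C3, epithelial-like classes 90.5% of C2 and 51.7% of Cfb, and neutrophil-like cells 56.9% of C5ar1.

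C2, the serine protease that forms the classical convertase with C4b, was low and did not pass the test. It stood at 3.09, 5.81 and 5.18 CPM in mucosa and at 1.31, 3.39 and 6.41 in the lowest, median and highest tumor, with a log2 difference of -0.30 ± 0.40 (adjusted p = 0.51). It was mainly an epithelial transcript, with 90.5% ± 2.9 of its tumor UMIs in epithelial-like cells and 98.4% in mucosa (1168 of 1187). Absorptive epithelial-like cells had the highest level in tumors (23.0 ± 9.7 CPM), followed by Paneth-like (12.8 ± 1.4), Wnt-high tumor epithelial-like (8.57 ± 2.0), other epithelial (7.18 ± 0.90) and goblet-like cells (4.96 ± 0.66), and phagocyte-like classes stayed at or below 0.898. Neighbours in this order overlapped between tumors. In mucosa, absorptive epithelial-like cells stood at 6.51 CPM, and 205 tuft-like cells, pooled, gave 9.78 CPM from 22 UMIs (6.02 to 38.9 in single libraries). Over all epithelial-like cells C2 gave 3.49, 6.03 and 5.59 CPM in mucosa against 1.90, 7.97 and 17.4 in tumors (0.49 ± 0.48, adjusted p = 0.39), so that tumors lay on both sides of mucosa. In phagocyte-like cells of mucosa 3 there were 0 UMIs of C2, which allows up to 10.9 CPM, above the 0.222 to 1.09 CPM of tumors, so no fold is given.

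C4b, the mouse C4 that is cleaved by C1s and MASP2, was low in both tissues, which did not overlap. It stood at 0.330, 0.488 and 0.568 CPM in mucosa against 2.38, 4.22 and 11.7 in the lowest, median and highest tumor, and was higher by 3.50 ± 0.57 (adjusted p = 9.1e-05). Mouse C, with a mean of 2.97 CPM, was below mouse A (5.92) and mouse B (8.01). Phagocyte-like cells held 66.8% ± 6.4 and epithelial-like cells 30.3% ± 6.2 of its tumor UMIs. In mucosa, epithelial-like cells held 92 of 117 UMIs and phagocyte-like cells 14. The levels in mature macrophage-like (17.6 ± 5.6 CPM), Ly6c+ monocyte-like (14.8 ± 6.4) and inflammatory macrophage-like cells (10.9 ± 2.9) lay within each other's spread, and Wnt-high tumor epithelial-like (4.66 ± 3.05) and absorptive epithelial-like cells (4.27 ± 2.73) were likewise close.

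In epithelial-like sums C4b stood at 0.127, 0.476 and 0.550 CPM in mucosa against 1.09, 3.36 and 12.8 in tumors (3.04 ± 0.76, edgeR adjusted p = 0.0032). It reached the count filter in 2 of the 3 mucosa libraries and passed it through the tumors, so this call is not read. Every tumor stood above every mucosa, as did 34.3% of genes in this comparison, and the highest tumor, tumor 9, stood apart from the next at 4.71. In mucosa 3, 4 cells with at least 5 UMIs of fibroblast markers held 25 of the 46 C4b UMIs of its epithelial-like sum. In phagocyte-like cells C4b was 21.8 CPM in mucosa 3 (6 UMIs) against 6.75 to 23.5 in tumors, which overlapped (adjusted p = 0.89).

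C3, the component on which all pathways meet, was carried by phagocyte-, neutrophil- and epithelial-like cells. Over all cells it stood at 0.564, 2.26 and 3.62 CPM in mucosa against 26.6 in the lowest tumor (tumor 2), 39.3 at the median and 74.8 in the highest (tumor 6), higher by 4.37 ± 0.58 (adjusted p = 1.5e-05) without overlap, and by 4.98 without mucosa 3. Phagocyte-like cells held 74.1% ± 3.1 of its tumor UMIs, neutrophil-like cells 16.8% ± 1.6 and epithelial-like cells 5.71% ± 1.02. In mucosa its source differed, since epithelial-like cells held 509 of 562 UMIs and phagocyte-like cells 30. Unlike C1q, it was level across phagocyte classes, at 139 ± 22 CPM in inflammatory macrophage-like, 132 ± 20 in Ly6c+ monocyte-like and 131 ± 35 in mature macrophage-like cells, all within their spread. At the finer clustering its medians ran from 107 CPM in the Ccr2-led to 166 in the Vcan-led cluster, and all 5 phagocyte clusters overlapped between tumors.

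Neutrophil-like cells averaged 58.1 ± 4.8 CPM of C3, with means of 44.5 to 83.4 in 5 neutrophil-like clusters at the finer clustering. A cluster led by Ccl3 and Ccrl2 gave 127 to 256 there, with a median of 205. Its identity was unclear, since it scored highest for neutrophil markers at the finer clustering (2360 cells) and for inflammatory macrophage markers at the coarser one (1718 cells), where it was not named, and none of its leading genes was a neutrophil marker. All unnamed cells together gave 152 ± 14 CPM. Dendritic-like cells were low, at 5.11 ± 2.02.

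In epithelial-like sums C3 stood at 0.382, 2.18 and 3.72 CPM in mucosa and at 2.72, 5.28 and 24.4 in tumors, which overlapped at mucosa 3, and it did not pass the test (1.41 ± 0.69, adjusted p = 0.088), nor did it without mucosa 3, where the difference was 2.10 (adjusted p = 0.051). With the mouse as a replicate block it did (1.63, adjusted p = 0.037). In mucosa 3 the same 4 cells with fibroblast UMIs held 131 of the 311 C3 UMIs of the epithelial-like sum, and without such cells in any library C3 was called (1.91, adjusted p = 0.026). A Cxcl5-led tumor epithelial-like cluster carried the highest epithelial levels, at 6.79 to 75.5 CPM with a median of 16.6. In phagocyte-like cells C3 was 69.0 CPM in mucosa 3 (19 UMIs) against 82.5 to 199 in tumors, all above it as in 40.4% of genes. The log2 difference of 1.21 ± 0.50 did not pass the test. C3 was called with doublets kept and 3 mucosa libraries (1.14, edgeR adjusted p = 0.039), where most such cells of mucosa 1 and 2 were flagged as likely doublets.

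Cfb, which encodes the protease of the alternative C3 convertase, had the highest mucosa level of the 9 members in all 3 libraries. It stood at 28.0, 41.1 and 37.0 CPM in mucosa 1, 2 and 3 and at 26.2 in the lowest tumor (tumor 3), 47.6 at the median and 84.2 in the highest (tumor 9), and the tissues overlapped. The log2 difference of 0.55 ± 0.27 did not pass the test (adjusted p = 0.078). With the mouse as a replicate block it was called (0.60, adjusted p = 0.046), as it was without tumor 3 (0.63, adjusted p = 0.016) and with the tumors of each mouse summed (0.67, adjusted p = 0.031). Its source differed by tissue, since 8778 of the 8866 mucosa UMIs were in epithelial-like cells, against 51.7% ± 7.5 in tumors, where single tumors ran from 36.4% to 78.5% and phagocyte-like cells held 47.2% ± 7.5.

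The cell classes of tumors ordered Cfb differently from C1q and C3. Inflammatory macrophage-like cells were highest (175 ± 51 CPM) and overlapped with absorptive epithelial-like cells (144 ± 15), followed by Paneth-like (94.2 ± 32.7), mature macrophage-like (91.0 ± 30.6), other epithelial (63.2 ± 9.9), Wnt-high tumor epithelial-like (59.7 ± 9.8), goblet-like (54.3 ± 8.8) and Ly6c+ monocyte-like cells (50.7 ± 8.8). Neutrophil-like cells gave 0.548 to 2.69 CPM and dendritic-like cells 6.08 ± 0.40. Among phagocytes at the finer clustering the Ccl24-led (median 164) and Cxcl10-led clusters (median 139) were highest and the Vcan-led cluster lowest (13.6 to 35.3 CPM, median 25.1). The Vcan-led and Cxcl10-led ranges did not overlap, since the latter ran from 96.6 to 237. In mucosa, absorptive epithelial-like cells stood at 49.1 CPM, goblet-like at 46.6, and the pooled tuft-like cells at 59.1 (133 UMIs, 48.2 to 90.8 in single libraries).

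Over epithelial-like cells Cfb gave 32.1, 42.8 and 40.0 CPM in mucosa and 37.3, 61.8 and 89.7 in tumors, and the difference of 0.42 ± 0.21 did not pass the test (adjusted p = 0.087). Scaling to library size alone, which moved the median of all genes tested from 0.04 to 0.32, gave a call (0.70, adjusted p = 0.011), as did leaving out tumor 3 (0.48, adjusted p = 0.026). Cfb was also called in edgeR with the tumors of each mouse summed (0.45, adjusted p = 0.043) and with doublets kept (0.52, adjusted p = 0.041). In phagocyte-like cells it was 76.3 CPM in mucosa 3 (21 UMIs) against 29.2 to 184 in tumors (0.69 ± 0.89, adjusted p = 0.81).

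Both anaphylatoxin receptors were nearly undetected in mucosa, and every tumor stood above every mucosa, as in 26.8% of genes tested. C3ar1, the receptor of C3a, stood at 0.110, 0.0357 and 0.208 CPM in mucosa (30 UMIs in all) against 13.5 in the lowest tumor (tumor 10), 21.9 at the median and 31.5 in the highest (tumor 5). It was higher by 7.56 ± 0.46 (adjusted p = 2.1e-08), and by 8.32 without mucosa 3. C5ar1, the receptor of C5a on neutrophils and macrophages, stood at 0.0687, 0.191 and 0.295 CPM in mucosa (48 UMIs) against 47.3 (tumor 3), 62.5 and 93.1 (tumor 6), higher by 8.55 ± 0.46 (adjusted p = 8.0e-09). C3ar1 reached the count filter in 1 and C5ar1 in 2 of the 3 mucosa libraries, so both passed it through the tumors. Their calls and the size of their differences are therefore not read. The sum of 8 neutrophil markers over all cells moved the same way, from 6.43 to 123 CPM in mucosa to 18570 to 37040 in tumors. Neither receptor overlapped between tissues, and the mouse means in tumors were 25.1, 21.8 and 20.3 CPM for C3ar1 and 84.3, 72.1 and 56.3 for C5ar1 in mice A, B and C.

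The receptors were carried by different cells. Phagocyte-like cells held 97.9% ± 0.4 of C3ar1 tumor UMIs, with 161 ± 14 CPM in mature macrophage-like cells against 52.2 ± 4.2 in inflammatory macrophage-like and 51.1 ± 1.6 in Ly6c+ monocyte-like cells, and only 1.35 ± 0.53 in neutrophil-like cells. The lowest mature macrophage-like tumor (112 CPM) was above the highest of the other phagocyte classes (69.0), which did not differ from each other beyond their spread. C5ar1 was divided between neutrophil-like (56.9% ± 2.8) and phagocyte-like cells (40.4% ± 2.3). Neutrophil-like cells had 326 ± 21 CPM, and their lowest tumor (277) was above the highest of every phagocyte class (158.5). Mature macrophage-like (128 ± 20), inflammatory macrophage-like (126 ± 10) and Ly6c+ monocyte-like cells (98.9 ± 7.6) overlapped.

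At the finer clustering C3ar1 had medians of 24.4 CPM in the Vcan-led, 43.4 in the Cxcl10-led, 51.3 in the Ccl24-led, 70.8 in the Ccr2-led and 162 in the Pf4-led cluster, in the same order as the C1qb medians. C5ar1 spanned less, with medians of 63.7, 93.9, 136, 129 and 133 CPM in the same clusters. The cluster led by Ccl3 and Ccrl2, of unclear identity, had 139 to 309 CPM of C5ar1 with a median of 214, beside means of 283 to 416 in the 5 neutrophil-like clusters.

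In phagocyte-like sums, C3ar1 stood at 69.0 CPM in mucosa 3 (19 UMIs) against 66.9 to 112 in tumors (0.68 ± 0.31, adjusted p = 0.39), and C5ar1 at 98.1 (27 UMIs) against 93.1 to 138 (0.55 ± 0.26, adjusted p = 0.43), so that both overlapped. Both were called higher with doublets kept and 3 mucosa libraries (C3ar1 1.01, adjusted p = 0.0055; C5ar1 0.97, adjusted p = 0.013), and C5ar1 with at least 5 phagocytes in a library (0.87, adjusted p = 0.047). The 42 neutrophil-like cells of mucosa, all in 1 library, gave 266 CPM of C5ar1 from 13 UMIs. In epithelial-like sums C5ar1 passed the count filter through the tumors alone, so its call is not read. It had 1 mucosa UMI against 491 in tumors, a ratio of 416 with a 95% counting interval of 74.3 to 16470, at 0.996 to 3.14 CPM per tumor. C3ar1 fell under the count filter there, with 3 UMIs against 73 (ratio 20.6, interval 6.79 to 102). The neutrophil marker sum of these cells, given above, was also higher in every tumor, and its part was not tested.

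Whether the tumor-mucosa difference itself differed between phagocyte-like and epithelial-like cells was tested as the interaction of class and tissue with the library as a block, over 16449 genes, of which 4.6% had a larger and 1.72% a smaller difference in phagocytes. The mucosa arm of this test is 1 library, mucosa 3, for both kinds of cells, and its epithelial-like sum held 10 UMIs of C1qb, 3 of C1qc and 0 of C5ar1 and C3ar1, none of which reached the count filter in any epithelial-like mucosa sum. The difference in phagocytes minus that in epithelial-like cells was -5.50 ± 0.81 for C1qb and -5.99 ± 1.15 for C1qc. With a minimum of 5 phagocytes, which brings in all 3 mucosa libraries, it was -5.66 ± 0.57 and -5.60 ± 0.65. The epithelial-like mucosa values of both genes rest on these few UMIs, so the size of these differences is not read. The same holds for C5ar1 and C3ar1, which had 0 epithelial UMIs in mucosa 3. C1qa (-2.05 ± 0.62, adjusted p = 0.078), C4b (-2.64 ± 1.15, adjusted p = 0.26), C3 (0.92 ± 0.81, adjusted p = 0.76) and Cfb (0.31 ± 0.59, adjusted p = 1.0) did not pass, although with 3 mucosa libraries C1qa (-1.62, adjusted p = 0.027) and C4b (-3.73, adjusted p = 0.018) did. C2, with 0 UMIs in the phagocytes of mucosa 3, gave no interpretable value.

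Over the 15 tumor cell classes, the genes whose levels ran most like each member were taken by Pearson's r of log2(CPM + 1) over 11250 genes that reached 10 CPM in a class, as a description in which the classes share libraries. The C1q chains were nearest to each other (0.987 to 0.99), and next to C1qa and C1qc stood Trem2, a lipid receptor of macrophages (0.983 and 0.98), and to C1qb C3ar1 (0.983). C3ar1 itself was nearest to Trem2 (0.994), Tmem119 and the scavenger receptor Msr1 (both 0.987), and C5ar1 to Clec4d (0.989), Pilra and the formyl peptide receptor Fpr2 (both 0.979). C3 was nearest to the Toll-like receptor Tlr2 (0.955), the heme oxygenase Hmox1 (0.953) and C1rl (0.949), and C4b less closely to Ctsl (0.876), Gab1 (0.875) and Nr1h3 (0.873). C2 was nearest to Pard6b (0.968), St14 (0.967) and Hoxd11 (0.966), each highest in absorptive epithelial-like cells. Cfb was nearest to Sash1 (0.967), which was highest in mature macrophage-like cells, and to the junction protein F11r (0.962) and Tcf7l2 (0.96), which were highest in absorptive epithelial-like cells.

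Among 42 other genes of the cascade, 18 were higher and 4 lower in tumors over all cells, 7 did not pass and 13 were too low to test, where 36.3% of all genes tested were higher and 35% lower. By role, 6 of 14 further recognition molecules and proteases were higher and 1 lower, 1 of 2 alternative pathway genes was higher, 1 of 7 terminal components was higher and 2 were lower, 5 of 12 inhibitors were higher and 1 lower, and 5 of 7 receptors were higher. Cfi, the factor I that cleaves C3b and C4b, was higher by 8.05 ± 1.00 (edgeR adjusted p = 8.7e-06), at a mean of 9.90 CPM against 0.037. Its mucosa value rests on 9 UMIs and lay under the count filter, which Cfi passed through the tumors. Its highest level was in Wnt-high tumor epithelial-like cells (28.7 ± 15.8 CPM). For the ficolin Fcnb, mucosa gave 0 UMIs and tumors 266, which is at least 34.5-fold higher in tumors when 3 counts over the mucosa group are taken as the floor, and the terminal component C6 had 771 against 1 (ratio 299.7, 95% counting interval 53.6 to 11850). The ficolin Fcna fell by 2.04 ± 0.35 on the log2 scale (edgeR adjusted p = 1.4e-04), and C8g, a part of C8, fell by 1.53 ± 0.23 (edgeR adjusted p = 4.1e-05). Hc, the gene of C5, fell by 1.46 ± 0.43 (edgeR adjusted p = 0.0077), but the tissues overlapped and it had only 55 UMIs in tumors and 61 in mucosa.

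In epithelial-like sums 12 of the 42 were higher, 3 lower, 5 did not pass and 22 were not tested, where 34.2% of all genes tested were higher and 30.6% lower. The inhibitor Clu (clusterin) was higher by 7.56 ± 0.83 (edgeR adjusted p = 6.3e-06), at a mean of 208 CPM against 0.900. Cfi was higher by 8.88 ± 1.09 (edgeR adjusted p = 1.5e-05). It had 9 mucosa UMIs against 6323 in tumors and again passed the count filter through the tumors. The protease Masp1 had 133 UMIs in 9 of 10 tumors, 0 in tumor 6 and 0 in mucosa, at least 37.6-fold higher over the groups by the same kind of floor. Fcna fell by 2.69, C8g fell by 1.37 and the C3b regulator Cr1l fell by 0.70 on the log2 scale. Cr1l went from a mean of 58.6 CPM in mucosa to 43.8 in tumors, and its tissues overlapped. In phagocyte-like sums, whose mucosa arm is mucosa 3 alone, 2 of 22 tested passed the threshold, where 1.09% of all genes were called higher. The properdin gene Cfp gave 216 CPM in tumors against 83.5 in mucosa 3 (23 UMIs; 1.66 ± 0.25, adjusted p = 0.0065), and Itgam, the alpha chain of complement receptor 3, 340 against 127 (35 UMIs; 1.71 ± 0.30, adjusted p = 0.013). Both calls were lost with the tumors of each mouse summed (adjusted p = 0.11 for each). The inflammatory macrophage marker sum of these cells was 4376 to 8297 CPM in tumors and 156 to 3658 in the 3 mucosa libraries, and its part was not tested.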

How the data were processed

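The files held raw counts of UMIs per gene and barcode, deposited by the authors for each of 13 libraries as a filtered matrix made with Cell Ranger on mm10. The submitters' processing notes and the matrix headers give version 6.0.0, and the study's methods give another version. Members and gene lists were chosen with earlier results of these data known. All columns were mapped to samples by the labels.

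Barcodes with at least 500 UMIs, 200 genes and under 25% mitochondrial UMIs were kept, and 10397 likely doublets (0.8% per 1000 barcodes, by simulated pairs) were removed. Cells were clustered (Leiden, leidenalg 0.10.2 and igraph 0.11.9, 20 neighbors, 30 components of 2000 variable genes, scikit-learn 1.9.0 in Python 3.11.15) without 51 complement genes, into 38 clusters at resolution 1 and 55 at resolution 2, named from marker lists by their leading genes. Clusters whose leading genes went against a name, or that held under 3 of its markers, stayed unnamed. Mitochondrial filtering removed 4.29% to 11.5% of barcodes in tumors and 14.3% to 28.9% in mucosa, and the retained depth was 49838182 to 76687510 UMIs in tumors and 72754392 to 91483238 in mucosa.

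Counts were summed per library over all cells, epithelial-like cells and monocyte- and macrophage-like cells (at least 20 cells) and tested with edgeR 4.0.16 in R 4.3.3 (quasi-likelihood, robust, TMM scaling, filterByExpr, Benjamini-Hochberg at 0.05), two-sided. Tumors of 1 mouse are separate tumors but not separate animals, so p-values measure the spread between libraries. Class levels are means over mouse means (SD, n = 3 mice). Intervals and floors (3 counts) cover counting error only and are exact at 95%. The code was tested on simulated counts.

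The alternatives were library sizes without TMM, DESeq2 1.42.0, no count filter, the mouse as a replicate block, tumors summed per mouse, doublets kept, under 10% mitochondrial UMIs, at least 1000 UMIs and 500 genes, resolution 2 and leaving out each library. A further 2 were chosen after seeing the data, namely leaving out cells with at least 5 fibroblast UMIs and lowering the phagocyte minimum to 5 cells. The animal code of the labels pairs tumors with the mucosa of the same mouse. The correlation of their deviations from the group means over genes was 0.0405, 0.0772 and 0.0853 for mice A, B and C over all cells and 0.0881, 0.135 and 0.240 over epithelial-like cells. All 9 members were named, and of the other complement genes the 3 with the largest called differences per direction and comparison. For likeness the 3 genes with the highest r were named. Outliers among tumors were sought in 27 sets of values.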

Additional observations from a re-analysis of the deposited data

Results flagged for a closer look

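In 3 of 27 sets of 10 tumor values 1 tumor stood apart from the others by Dixon's criterion, which chance meets in about 1 of 20 sets. C2 in mononuclear phagocyte-like cells was 1.09 CPM in tumor 7, against 0.609 in the next tumor. C3 in epithelial-like cells was 24.4 CPM in tumor 6, against 6.85 in the next, and 235 of its 501 UMIs lay in the Cxcl5- and Krt17-led cluster, at 75.5 CPM in 183 cells. C4b in epithelial-like cells was 12.8 CPM in tumor 9, against 4.71 in the next, and 78 of its 295 UMIs lay in a cluster led by Mt4 and Mt3, at 21.3 CPM in 170 cells.

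The tissue difference in phagocyte-like cells minus that in epithelial-like cells was flagged for C1qb, C1qc, C3ar1 and C5ar1. On the log2 scale it was -5.50, -5.99, -4.70 and -7.55 in edgeR. Mucosa 3 was the single mucosa library of both arms, with 10, 3, 0 and 0 epithelial UMIs of these genes. None of them reached the count filter in an epithelial-like mucosa sum. Their epithelial-like mucosa values rest on these few UMIs, and no difference is read from them.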

How the results depend on the processing

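Of the members' results under the alternatives, 8 values changed sign, none of them called. In phagocyte-like sums these were C2 under DESeq2 (-0.18), C4b with the mouse as a replicate block (0.076) and, with doublets kept, which also raised the mucosa libraries with 20 phagocytes from 1 to 3, C1qb (0.070) and C1qc (0.10). In the interaction they were Cfb without TMM (-0.35), with doublets kept (-0.13) and with at least 5 phagocytes (-0.17), and C3 with doublets kept (-1.22). The cause was not tested.

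The phagocyte-like comparison, with 178 genes called, moved most, to 359 with DESeq2, 384 with the replicate block, 17 with tumors summed per mouse, 943 with doublets kept (and 3 mucosa libraries) and 555 with at least 5 phagocytes. Members called there went from 0 to 3 with doublets kept and 3 mucosa libraries (C3, C3ar1 and C5ar1) and to 1 with at least 5 phagocytes (C5ar1, 0.87, edgeR adjusted p = 0.047). With doublets kept, most phagocyte-like cells of mucosa 1 and 2 were flagged as likely doublets. Scaling without TMM changed the share of higher calls from 80.3% to 38.7% there, from 52.8% to 69.8% in epithelial-like sums and from 72.8% to 18.4% in the interaction. The interaction count of 1039 became 651 without TMM, 2208 with doublets kept (and 3 mucosa libraries), 637 under 10% mitochondrial UMIs and 2317 with at least 5 phagocytes. C3ar1 was at -4.63 (edgeR adjusted p = 0.093) under 10% mitochondrial UMIs, and C1qa (-1.62) and C4b (-3.73) gained one with at least 5 phagocytes. The members called in epithelial-like sums went from 5 to 8 with doublets kept, where 10577 of 16228 genes were called, against 9983 of 15409 without doublets. The replicate block gave 12863 calls against 12326 over all cells and 10560 against 9983 in epithelial-like sums.

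Shares of tumor UMIs in Wnt-high epithelial-like cells moved at resolution 2 for C2 (66.2% to 27.7%) and Cfb (35.3% to 14.7%), and for Cfb under 10% mitochondrial UMIs (28.4%). With doublets kept, mature macrophage-like cells held 22.2% of C3 (25.4% without) and 17.6% of C4b (28.1%).

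Leaving out 1 library at a time gave 11259 to 12399 calls and 7 to 8 members called over all cells, 8766 to 10387 and 4 to 6 in epithelial-like sums, 128 to 265 and 0 in phagocyte-like sums, and 930 to 1250 and 4 in the interaction (C3ar1 and C5ar1 included). Without mucosa 3 the phagocyte-like sums and the interaction gave no value. The phagocyte comparison is limited by 1 mucosa library with 65 cells, and C3ar1 and C5ar1 in mucosa by 30 and 48 UMIs.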

Other observations

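C1qa in mucosa goblet-like cells was found almost without the other chains (2 UMIs of C1qb and 3 of C1qc). The 312 UMIs lay in 121 of 4589 cells (2.64%), at most 27 in 1 cell, and were uneven between libraries. The larger of the 2 goblet-like clusters gave 1.10 CPM in mucosa 1 (35 UMIs), 10.9 in mucosa 2 (196 UMIs) and 3.37 in mucosa 3 (51 UMIs). In tumors, 333 goblet-like cells held 14 UMIs of C1qa and 13 of C1qb. The pattern was not particular to goblet-like cells. In mucosa, 229 enteroendocrine-like cells held 14 UMIs of C1qa and 0 of C1qb and C1qc. Their mean C1qa was 8.89 CPM (4.46 to 16.1 in single libraries), against 4.52 in goblet-like cells.

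The 121 mast cell-like cells of tumors, pooled because no library held 20, carried both anaphylatoxin receptors. C3ar1 gave 38 UMIs in 27 cells, or 83.6 CPM with an exact Poisson interval of 59.2 to 115, and C5ar1 gave 29 UMIs, or 63.8 CPM (42.7 to 91.7). C1qb gave 5 UMIs in these cells, and C3ar1 in T cell-like cells, which do not carry the receptor in quantity, stood at 0.461 CPM.

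Other genes of the cascade had their highest tumor levels in various classes. The receptor gene Cr2 was highest in B cell-like cells (81.2 ± 14.0 CPM), the decay-accelerating factor Cd55 in absorptive epithelial-like cells (357 ± 30), clusterin in Wnt-high tumor epithelial-like cells (235 ± 45), properdin (Cfp) in mature macrophage-like cells (303 ± 43) and C5ar2, the second C5a receptor, in neutrophil-like cells (22.9 ± 9.1, SD, n = 3 mice).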
